A study of Danio rerio with 32 samples.

Results

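The cone opsins are the light-sensing proteins of cone photoreceptors, and the 8 zebrafish genes opn1sw1, opn1sw2, opn1mw1, opn1mw2, opn1mw3, opn1mw4, opn1lw1 and opn1lw2 were taken from a table of 32520 genes by gene name. All 8 were found, and they were read in 16 eye libraries. Each cone cell as a rule carries 1 kind of opsin, bound to a vitamin A derived chromophore, and passes its signal through cone transducin, phosphodiesterase and a cyclic nucleotide-gated channel. In zebrafish, opn1sw1 marks ultraviolet cones, opn1sw2 blue cones, the opn1mw genes green cones and the opn1lw genes red cones. The green and red genes are each copies that lie side by side, and the copies of an array are known to be used in an order that follows age and place in the retina. Thyroid hormone and its receptor thrb, and the transcription factors tbx2b, foxq2 and six7, are known in fish to decide which opsin a cone makes.

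Zebrafish embryos of a wild type strain were kept in 0.1% dimethyl sulfoxide (DMSO), either alone or with the perfluorinated compound PFNA (perfluorononanoic acid) at 12.5 µM, from 0.75 to 120 hours post fertilization, and the eyes or brains were then dissected. The series' design text names another compound, PFHxS, where the title, the treatment protocol and the sample labels name PFNA; the sample labels are followed here. The 4 eye groups are LD DMSO and LD PFNA, raised under 14 h light and 10 h dark, and DD DMSO and DD PFNA, raised under 24 h dark, with 4 libraries each. All the groups, controls included, received DMSO, and nothing in the labels says that the replicates came from separate clutches, so p-values measure the spread between these libraries, which may be technical. Levels are FPKM, fragments per kilobase of gene length scaled by a divisor for each library, as deposited.

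The eye libraries held 8.83 to 15.72 M (mega) fragments recovered from the FPKM steps. Rod, bipolar, ganglion cell, lens and pigment epithelium markers were present in all 16. The divisor behind the FPKM was not the recovered fragment total, and a lower divisor gives a higher FPKM. It was below the total in every LD PFNA library (10.15 against 10.77 M in replicate 4). In every DD DMSO library it was above the total (12.25 against 11.79 M in replicate 1). In eye DD PFNA replicate 4 it was 9.91 against 11.01 M. The library labelled eye DD PFNA replicate 4 stood apart, with 10.01% of its fragments from mitochondrial genes against 4.66% to 8.03% in the other 15, and it was the highest of its group for all 5 expressed cone opsins; the share of the control mean without it is given for each opsin. Brain DD PFNA replicate 3, so labelled, held cone opsins near eye level and was left out of the brain background. In the other 15 brain libraries the highest opn1sw1 value was 17.2 FPKM (median 4.53), the highest opn1mw1 value 7.26 (median 3.16) and the highest opn1lw2 value 1.92 (median 0.792). For each expressed opsin the highest of these brain values was at most 0.916% of the lowest eye value.

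The genes lie in 3 places in the deposited annotation, of which the sources used here do not give the genome build. The ultraviolet opsin gene opn1sw1 (ENSDARG00000045677) is on the minus strand of chromosome 4 at 13577665 to 13580348. The 4 green opsin genes follow each other on the plus strand of chromosome 6, with opn1mw1 (ENSDARG00000097008) at 41181869 to 41183823, opn1mw2 (ENSDARG00000044280) at 41186320 to 41189460, opn1mw3 (ENSDARG00000044279) at 41191482 to 41193419 and opn1mw4 (ENSDARG00000000638) at 41200500 to 41202554. The blue opsin gene opn1sw2 (ENSDARG00000017274) is on the plus strand of chromosome 11 at 25459697 to 25475403, followed by the red opsin genes opn1lw1 (ENSDARG00000044862) at 25477643 to 25480037 and opn1lw2 (ENSDARG00000044861) at 25481046 to 25483206. Only 1008 bases separate opn1lw1 from opn1lw2, against 2239 between opn1sw2 and opn1lw1 and 2496, 2021 and 7080 between the successive green opsin genes. The array copies are similar in sequence, so how fragments were shared between them is uncertain. The gene model of opn1sw2 overlaps 2 minus-strand genes, hcfc1a over 1640 bases and the antisense gene CT573282.1 over 121 bases; these ran at 4.12 to 14.9 and 4.67 to 29.9 FPKM in eyes, and the labels do not say whether strand was kept.

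**Figure D1:**
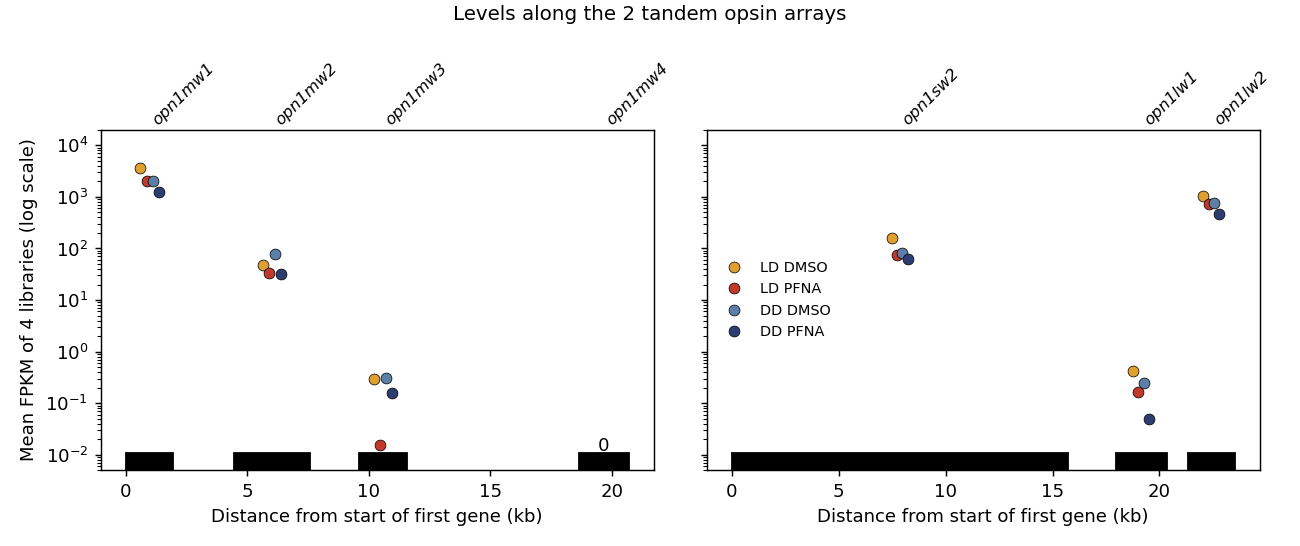
Mean FPKM of 4 libraries (vertical log axis) for the genes of the green opsin array (left) and of the opn1sw2 and opn1lw array (right), at their distance in kb from the start of the first gene; black boxes are gene models and colours are the 4 eye groups. The first green gene, opn1mw1, and the last red gene, opn1lw2, carried the signal of their arrays, and opn1mw4, marked 0, was listed at 0 throughout.

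Among the 8 genes, 5 had 1 FPKM or more in 4 or more eye libraries and were tested: opn1sw1, opn1sw2, opn1mw1, opn1mw2 and opn1lw2. In control eyes under LD the levels ran in the order opn1sw1 (5440 ± 665 FPKM, SD, n = 4), opn1mw1 (3623 ± 555), opn1lw2 (1053 ± 259), opn1sw2 (160 ± 19.8) and opn1mw2 (48.2 ± 8.11), and no 2 neighbours in that order overlapped. The means of the other 3 groups ran in the same order, but in DD DMSO eyes opn1sw2 (80.1 ± 9.41) and opn1mw2 (78.0 ± 8.89) overlapped. Together the cone opsins made up 0.780% to 2.08% of an eye library's fragments. Their summed level was 10325 ± 1337 FPKM in LD DMSO eyes, 6455 ± 875 in LD PFNA, 6666 ± 323 in DD DMSO and 5212 ± 919 in DD PFNA.

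Under LD, 3 of the 5 tested cone opsins fell with PFNA (opn1sw1, opn1sw2 and opn1mw1), where 3.7% of the 18204 genes tested fell (limma on log2(FPKM + 1), adjusted p under 0.05). In the same 3 the groups did not overlap, with PFNA lower, as in 9.53% of all genes. Under DD, 3 of 5 fell with PFNA (opn1mw1, opn1mw2 and opn1lw2), where 4.36% of all genes fell, and those 3 did not overlap, against 6.7% of all genes. Dark rearing in DMSO went with lower levels of opn1sw1, opn1sw2 and opn1mw1, against 6.34% of all genes, and the groups of these 3 did not overlap, against 13.1%. Dark rearing in PFNA went with lower opn1mw1 and opn1lw2, against 9.05% of all genes, and those 2 did not overlap, against 11.1%. In DMSO eyes opn1mw2 was higher under DD without overlap, as were 11.8% of all genes, but did not pass (limma adjusted p = 0.105). No cone opsin was called higher in any of the comparisons, where 7.05%, 6.54%, 6.22% and 7.04% of all genes rose. The median log2 change of the 5 was -0.60, -0.73, -0.53 and -0.32 in that order of comparisons, beside all-gene medians of 0.01, -0.02, 0.03 and 0.01. The comparisons share groups, the PFNA groups as well as the controls, so these values are set side by side and are not independent of each other. In these bulk eyes fewer cells of a type and less RNA per cell cannot be told apart.

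**Figure D2:**
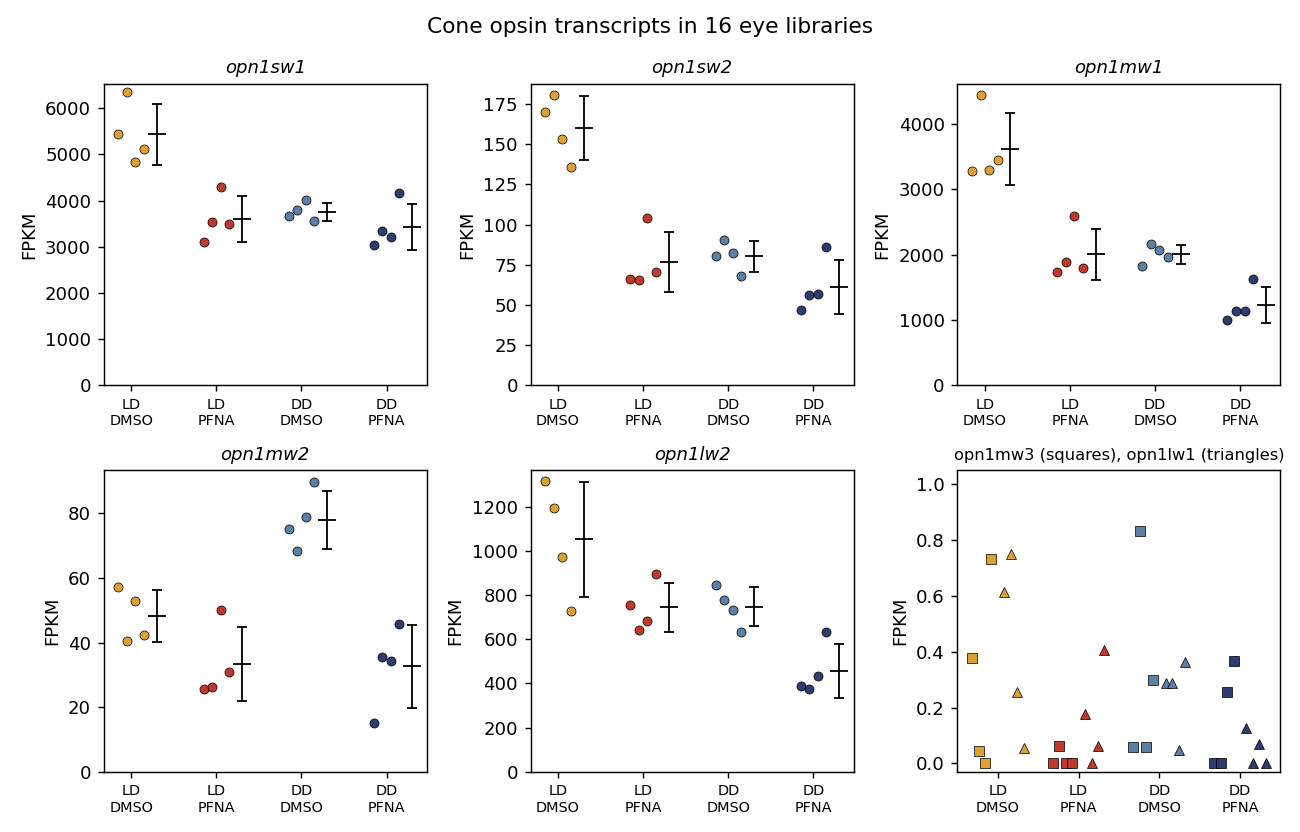
FPKM of each cone opsin in the 16 eye libraries (points; colours are the 4 groups), with the mean and SD of 4 libraries as a bar beside each group of expressed genes; the last panel shows opn1mw3 and opn1lw1 on a scale to 1 FPKM. The LD DMSO points lie above all the others for opn1sw1, opn1sw2 and opn1mw1, while for opn1mw2 the highest points are those of DD DMSO.

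The ultraviolet opsin opn1sw1 was the most abundant of the family in every eye library. Its level was 5447, 6365, 4837 and 5111 FPKM in the 4 LD DMSO libraries and 3093, 3529, 4285 and 3482 in LD PFNA. It was 3658, 3804, 4006 and 3550 FPKM in DD DMSO and 3035, 3336, 3215 and 4160 in DD PFNA. The LD DMSO libraries stood above all 12 others, which overlapped among themselves. PFNA eyes held 66.1% of the control mean under LD, a log2 change of -0.60 ± 0.16 (SE, limma adjusted p = 0.0264). Under DD they held 91.5%, a change of -0.14 ± 0.16 (limma adjusted p = 0.661), or 85.1% without eye DD PFNA replicate 4. Dark-reared DMSO eyes held 69.0% of the LD mean, a change of -0.53 ± 0.16 (limma adjusted p = 0.044), and dark-reared PFNA eyes 95.5%, a change of -0.07 ± 0.16 (limma adjusted p = 0.805), or 88.8% without eye DD PFNA replicate 4. The opn1sw1 calls lay close to the threshold. The call with PFNA under LD was lost without LD DMSO replicate 1 or 2 or LD PFNA replicate 1, 2 or 4 (limma adjusted p from 0.0643 to 0.0903), and that with darkness in DMSO was lost in 13 of the 16 refits that left out 1 library, all but those without LD PFNA replicate 3, DD PFNA replicate 1 or DD PFNA replicate 4 (limma adjusted p up to 0.133).

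The blue opsin opn1sw2 lost the largest share of its level with PFNA under LD among the 5 tested. It stood at 170, 181, 153 and 136 FPKM in LD DMSO and at 65.9, 65.1, 104 and 70.3 in LD PFNA. In DD DMSO it stood at 80.3, 90.5, 82.0 and 67.7 FPKM, and in DD PFNA at 46.9, 56.1, 56.7 and 85.7. Every LD DMSO library exceeded every library of the other 3 groups. LD PFNA eyes held 47.7% of the LD DMSO mean, a log2 change of -1.08 ± 0.18 (limma adjusted p = 0.00117), and DD DMSO eyes 50.0%, a change of -0.99 ± 0.18 (limma adjusted p = 0.003). Under DD the PFNA eyes held 76.6% of the control mean, a difference of -0.41 ± 0.18 (limma adjusted p = 0.17), with overlapping groups. Without eye DD PFNA replicate 4 they held 66.4%, and the difference of -0.58 passed the threshold (limma adjusted p = 0.0216). Dark-reared PFNA eyes held 80.3% of the LD PFNA mean, or 69.7% without that library, a difference of -0.32 ± 0.18 with it (limma adjusted p = 0.225). Of the 2 genes that overlap the opn1sw2 model, hcfc1a also fell with PFNA under LD (-0.63 ± 0.13, limma adjusted p = 0.00446) and with darkness in DMSO (-1.22 ± 0.13, limma adjusted p = 6.55e-05), and further with darkness in PFNA (-0.57 ± 0.13, limma adjusted p = 0.0109), where opn1sw2 was not called. CT573282.1 fell with PFNA under LD (-0.90 ± 0.26, limma adjusted p = 0.037), a call lost in 7 of the 16 refits that left out 1 library (each of LD DMSO replicates 1 to 3 and LD PFNA replicates 1 to 4); the part of either gene in the opn1sw2 values was not tested.

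The green opsin opn1mw1, the first gene of its array, fell in all 4 comparisons. Its level was 3289, 4448, 3301 and 3455 FPKM in LD DMSO and 1740, 1885, 2586 and 1800 in LD PFNA. It was 1826, 2160, 2073 and 1961 FPKM in DD DMSO and 996, 1141, 1129 and 1630 in DD PFNA. LD DMSO libraries were highest, DD PFNA libraries lowest, and LD PFNA and DD DMSO lay between them over a shared range. PFNA eyes held 55.3% of the control mean under LD (log2 change -0.86 ± 0.18, limma adjusted p = 0.00505) and 61.0% under DD (-0.73 ± 0.18, limma adjusted p = 0.0143). Dark-reared eyes held 55.3% of the LD mean with DMSO (-0.84 ± 0.18, limma adjusted p = 0.00707) and 61.1% with PFNA (-0.72 ± 0.18, limma adjusted p = 0.017). Without eye DD PFNA replicate 4 the DD PFNA mean was 54.3% of the DD DMSO mean and 54.4% of the LD PFNA mean. No single library that was left out ended any of these 4 calls. The PFNA call under DD and the darkness call with PFNA did not pass where low genes were kept in the fit (limma adjusted p = 0.0798 and 0.0725) or where only the 2 groups compared were fitted (0.0832 and 0.104).

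The second green gene, opn1mw2, was far lower and followed another pattern. Its level was 57.2, 40.4, 52.9 and 42.4 FPKM in LD DMSO and 25.8, 26.3, 50.2 and 31.0 in LD PFNA. In DD DMSO it was 75.2, 68.3, 78.8 and 89.6 FPKM, and in DD PFNA 15.1, 35.4, 34.4 and 45.6. The DD DMSO libraries were the highest 4 of the 16, and the other 3 groups overlapped. DD DMSO eyes held 162% of the LD DMSO mean without overlap, as did 11.8% of all genes in that direction, but the log2 difference of 0.69 ± 0.27 did not pass the test (limma adjusted p = 0.105). It passed without DD PFNA replicate 1, a library outside that comparison (limma adjusted p = 0.0269), and where only the 2 groups compared were fitted (0.00635). Under DD the PFNA eyes held 41.9% of the control mean, a fall of -1.33 ± 0.27 (limma adjusted p = 0.00473), or 36.3% without eye DD PFNA replicate 4. Under LD the PFNA difference was -0.56 ± 0.27 (limma adjusted p = 0.216), and among PFNA eyes DD and LD differed by -0.08 ± 0.27 (limma adjusted p = 0.869). Dark-reared PFNA eyes held 98% of the LD PFNA mean of opn1mw2, or 85% without eye DD PFNA replicate 4.

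Set against its neighbour, opn1mw2 amounted to 1.37 ± 0.376% of the opn1mw1 FPKM in LD DMSO eyes (SD, n = 4), 1.63 ± 0.246% in LD PFNA, 3.91 ± 0.591% in DD DMSO and 2.62 ± 0.746% in DD PFNA. Within DMSO eyes the log2 ratio was 1.55 higher under DD than under LD, without overlap, at the smallest p that 4 libraries against 4 allow (exact two-sided permutation p = 0.0286). Within DD eyes the ratio was lower with PFNA by a log2 difference of -0.62, also without overlap (exact permutation p = 0.0286). The other 2 comparisons gave 0.29 for PFNA under LD (exact permutation p = 0.314) and 0.64 for DD among PFNA eyes (exact permutation p = 0.0857). Adjusted over the 4 ratio tests, none passed 0.05, and both smallest values became 0.0571.

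**Figure D3:**
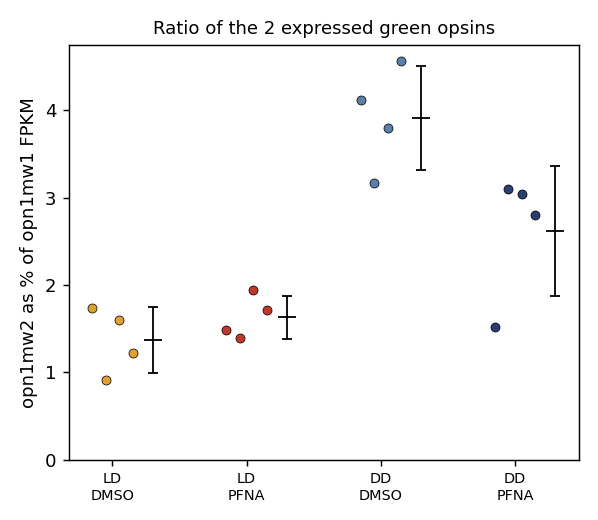
Level of opn1mw2 as a percent of the opn1mw1 FPKM (vertical axis) in each of the 16 eye libraries (points) with the mean and SD of 4 libraries per group (bars). The DD DMSO libraries, from 3.16% to 4.57%, lie above all the others.

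The red opsin opn1lw2 was the third most abundant. Its level was 1317, 1193, 974 and 727 FPKM in LD DMSO and 757, 642, 683 and 898 in LD PFNA. It was 846, 777, 732 and 635.2 FPKM in DD DMSO and 388, 373, 434 and 635.2 in DD PFNA. The DD PFNA libraries lay below all the libraries of the other groups, the closest pair being DD PFNA replicate 4 at 635.16 and DD DMSO replicate 4 at 635.22. Under DD, PFNA eyes held 61.2% of the control mean (log2 change -0.73 ± 0.20, limma adjusted p = 0.0256), and dark-reared PFNA eyes held 61.4% of the LD PFNA mean (-0.72 ± 0.20, limma adjusted p = 0.0247). Without eye DD PFNA replicate 4 these shares were 53.3% and 53.5%. Under LD the PFNA difference was -0.48 ± 0.20 (limma adjusted p = 0.147), and in DMSO eyes DD and LD differed by -0.47 ± 0.20 (limma adjusted p = 0.136). The PFNA call under DD was lost without DD DMSO replicate 1, 2 or 3 or DD PFNA replicate 1, 2 or 3 (limma adjusted p from 0.0525 to 0.077). The darkness call was lost without LD PFNA replicate 1 (limma adjusted p = 0.0562) or 4 (0.0721).

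The remaining 3 genes were at or near 0. The first red gene, opn1lw1, ran from 0 to 0.750 FPKM, with 38, 12, 19 and 3 fragments summed over the 4 libraries of LD DMSO, LD PFNA, DD DMSO and DD PFNA. Its neighbour opn1lw2 had 95968, 59377, 62997 and 31298 fragments in the same groups, so that opn1lw1 was 0.0396%, 0.0202%, 0.0302% and 0.00958% of their joint fragments. The third green gene, opn1mw3, ran from 0 to 0.833 FPKM, with 18, 1, 20 and 8 fragments. It was listed at 0 in 6 of the 16 libraries and opn1lw1 in 3, and neither was tested. The fourth green gene, opn1mw4, was listed at 0 in all 32 libraries. A count of 0 allows up to 3 fragments, or 0.139 to 0.257 FPKM per eye library for opn1mw4, with counting error only.

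The PFNA effect was not shown to differ between the light regimes for any cone opsin. In the test of that difference 0 of 5 were called, against 0.137% of all genes (25 genes), and 1 of the 5 had an unadjusted p under 0.05. The log2 difference of the effect (DD minus LD) was 0.67 ± 0.25 for opn1sw2 (limma adjusted p = 0.329), 0.46 ± 0.23 for opn1sw1 (0.472), 0.13 ± 0.25 for opn1mw1 (0.882), -0.26 ± 0.28 for opn1lw2 (0.766) and -0.77 ± 0.38 for opn1mw2 (0.472). The values are positive for both short-wave genes and for opn1mw1, and negative for opn1mw2 and opn1lw2, none of them beyond the threshold. The opn1mw1 value changed sign in 2 of 23 alternatives.

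**Figure D4:**
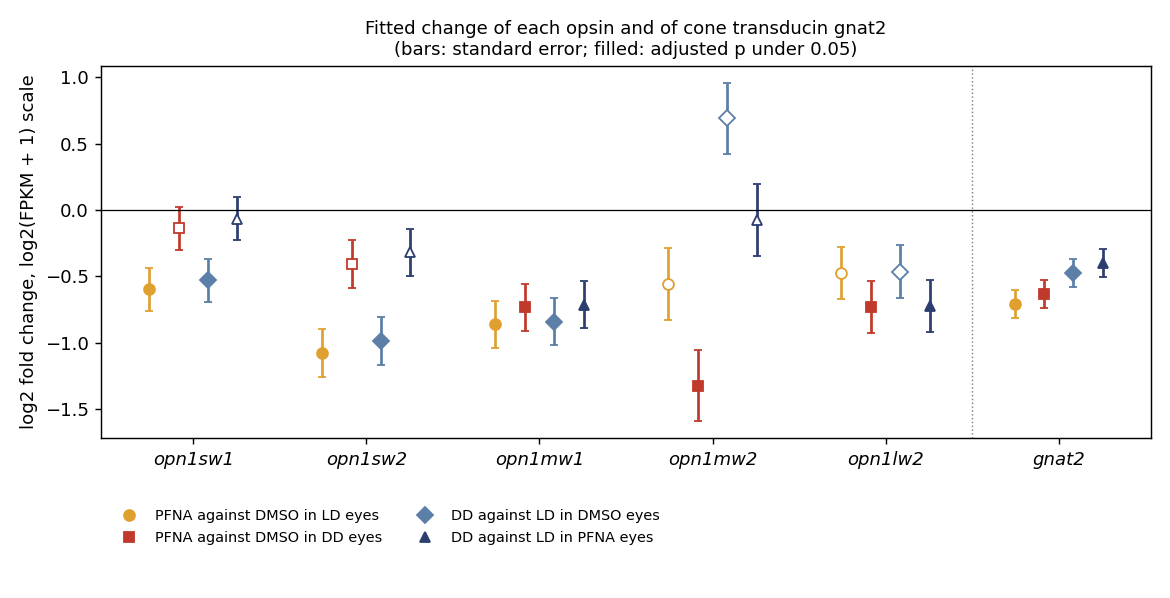
Fitted log2 fold change on the log2(FPKM + 1) scale (vertical axis, bars are the standard error) of the 5 tested cone opsins and of gnat2 in 4 comparisons, with filled symbols for an adjusted p under 0.05. All 4 symbols are filled for opn1mw1 and gnat2, and for opn1mw2 only that of PFNA under DD.

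In DD PFNA eyes the ultraviolet gene made up a larger part of the cone opsin signal than in the other groups. The share of opn1sw1 in the summed cone opsin FPKM was 52.7 ± 0.949% in LD DMSO, 55.7 ± 1.24% in LD PFNA, 56.3 ± 0.954% in DD DMSO and 66.2 ± 1.97% in DD PFNA. The lowest DD PFNA library, at 63.4%, lay above the highest of the other 12, at 57.5%. The share of opn1mw1 ran the other way, from 35.1 ± 2.1% in LD DMSO through 30.9 ± 2.01% and 30.1 ± 1.46% to 23.3 ± 1.1% in DD PFNA. The share of opn1lw2 was 10.2 ± 2.11%, 11.7 ± 2.52%, 11.2 ± 1.31% and 8.70 ± 0.881% in the same order. Its DD PFNA libraries, at 7.56% to 9.69%, lay below the DD DMSO libraries, at 10.1% to 13.0%, and overlapped both LD groups. The blue gene opn1sw2 held 1.55 ± 0.113% in LD DMSO and 1.16% to 1.20% on average in the other groups, and opn1mw2 held 1.18 ± 0.180% in DD DMSO against 0.475% to 0.614% elsewhere. Shares were not tested, since they sum to a fixed total and repeat the levels above.

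**Figure D5:**
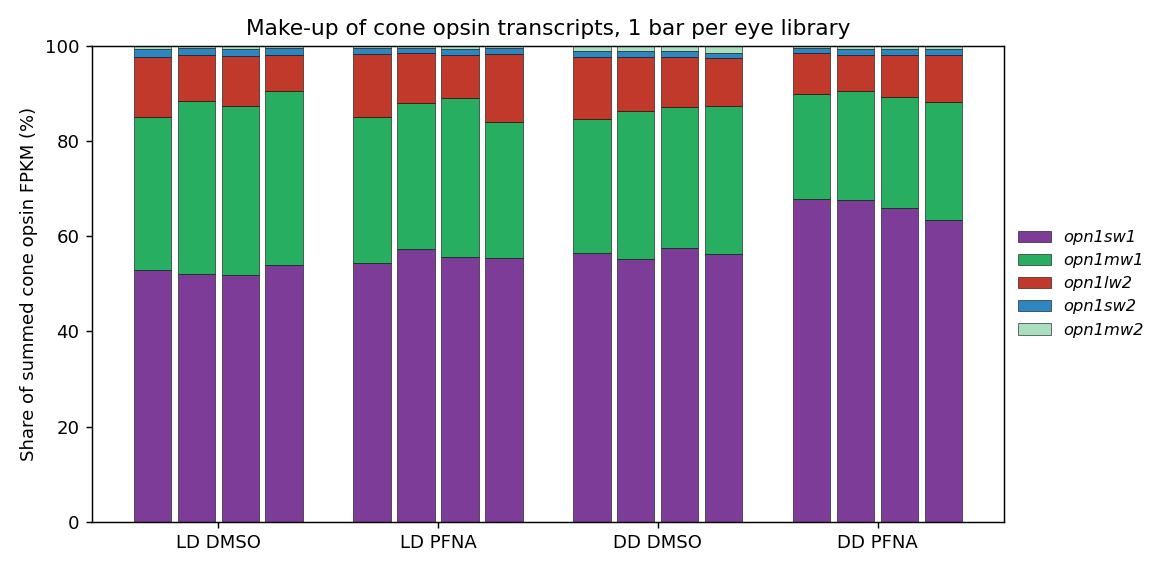
Share of each expressed gene in the summed cone opsin FPKM (vertical axis, percent), with 1 stacked bar per eye library and 4 bars per group. The opn1sw1 part is between 63.4% and 67.7% in the DD PFNA bars and at most 57.5% in the others.

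The gene gnat2 encodes the alpha subunit of cone transducin, the G protein that cone opsins activate. It fell in all 4 comparisons, with means of 1148 ± 69.4 FPKM in LD DMSO, 704 ± 84.7 in LD PFNA, 823 ± 25.9 in DD DMSO and 530 ± 30.7 in DD PFNA. The log2 changes were -0.71 ± 0.11 and -0.64 ± 0.11 with PFNA under LD and DD, and -0.48 ± 0.11 and -0.40 ± 0.11 with darkness in DMSO and in PFNA (limma adjusted p = 0.000475, 0.00102, 0.00936 and 0.021). The last call was lost without LD PFNA replicate 2 or 3 (limma adjusted p up to 0.0587). Relative to gnat2, PFNA under LD moved the opsins by -0.38 (opn1sw2) to 0.24 (opn1lw2) on the log2 scale, with overlap for all 5. Under DD, opn1sw1 was 0.50 higher relative to gnat2 with PFNA and opn1mw2 was lower by a difference of -0.72, both without overlap. The log2 ratio of opn1mw2 to gnat2 ran from -5.03 to -3.61 in DD PFNA and from -3.56 to -3.24 in DD DMSO. With darkness in DMSO, opn1sw2 (-0.52) and opn1mw1 (-0.37) were lower and opn1mw2 (1.18) higher relative to gnat2, each without overlap. With darkness in PFNA only opn1sw1 (0.34) did not overlap. These ratios are descriptions without a test, and gnat2 is 1 gene of a pathway whose other members went both ways. The share of all genes without overlap relative to gnat2 was not computed. Whether a lack of overlap in these ratios is unusual is therefore not known.

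The rod opsin rho, read for comparison, was at 2752 ± 617 FPKM in LD DMSO, 1749 ± 207 in LD PFNA, 1617 ± 334 in DD DMSO and 1445 ± 266 in DD PFNA. It fell with darkness in DMSO (-0.77 ± 0.20, limma adjusted p = 0.0204), a call lost without LD DMSO replicate 2 or 3 or DD DMSO replicate 1 or 3 (up to 0.07), and its PFNA difference under LD was -0.64 ± 0.20 (limma adjusted p = 0.0502). The summed cone opsins were 3.84, 3.76, 4.27 and 3.70 times the rho level on average in LD DMSO, LD PFNA, DD DMSO and DD PFNA, with overlapping ranges. In the rod phototransduction list 5 of 20 tested genes fell and none rose with PFNA under LD, and 3 fell and none rose under DD. With darkness 3 fell and 3 rose in DMSO, and 1 fell and 4 rose in PFNA. The median log2 change of the list was -0.325, -0.28, 0.13 and 0.11 in these comparisons. Of all genes, 3.7% fell and 7.05% rose with PFNA under LD, and 4.36% fell and 6.54% rose under DD. With darkness 6.34% of all genes fell and 6.22% rose in DMSO, and 9.05% fell and 7.04% rose in PFNA.

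Other genes of the cone light response were called in both directions. With PFNA under LD, 4 of the 28 tested members of the cone phototransduction list rose and 9 fell, and under DD 2 rose and 10 fell. Of all genes 7.05% rose and 3.7% fell under LD, and 6.54% rose and 4.36% fell under DD, so the 2 that rose under DD are near the share of all genes. With darkness 5 rose and 6 fell in DMSO, and 3 rose and 9 fell in PFNA, beside 6.22% and 6.34%, and 7.04% and 9.05%, of all genes. The median log2 change of the list was -0.24, -0.20, -0.21 and -0.03 in these comparisons. The 2 channel subunit genes cnga3b and cngb3.2 went opposite ways with PFNA: cnga3b rose by 0.97 ± 0.14 under LD and 1.53 ± 0.14 under DD, and cngb3.2 changed by -0.75 ± 0.09 and -1.55 ± 0.09 (limma adjusted p at most 0.000413 for each). With darkness cngb3.2 fell in PFNA too (-1.09 ± 0.09, limma adjusted p = 1.04e-05). The paralogue cnga3a fell under DD (-0.82 ± 0.09, limma adjusted p = 2.84e-05) and differed by -0.19 ± 0.09 under LD (limma adjusted p = 0.202); the difference between the 2 effects did not pass (limma adjusted p = 0.0854). It also fell with darkness in PFNA (-0.89 ± 0.09, limma adjusted p = 7.48e-05). The kinase grk1b, which phosphorylates active opsin, fell with PFNA under LD (-0.57 ± 0.11, limma adjusted p = 0.00283) and DD (-1.16 ± 0.11, limma adjusted p = 4.59e-06), and with darkness in PFNA (-0.74 ± 0.11, limma adjusted p = 0.0011). The cone arrestin arr3a, which ends opsin signalling, rose with darkness in DMSO (1.24 ± 0.18, limma adjusted p = 0.000634) and in PFNA (0.78 ± 0.18, limma adjusted p = 0.0115). So did the recoverin rcvrn3, a calcium sensor (0.51 ± 0.10 and 0.57 ± 0.10, limma adjusted p = 0.00466 and 0.0029), while the transducin beta subunit gnb3b fell with darkness in DMSO (-0.52 ± 0.10, limma adjusted p = 0.00463) and with PFNA under LD (-0.52 ± 0.10, limma adjusted p = 0.00348). The phosphodiesterase inhibitory subunit pde6ha rose with darkness in DMSO (1.60 ± 0.27, limma adjusted p = 0.00185). The sum of the list did not follow the opsins: it was 6762 to 7781 FPKM in LD DMSO, 5460 to 7242 in LD PFNA, 6424 to 8137 in DD DMSO and 5683 to 9884 in DD PFNA.

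Further members of that list that had among the smallest adjusted p-values of their comparison were the following. The exchanger slc24a2 (0.80 ± 0.18) and the arrestin arr3b (0.69 ± 0.17) rose with PFNA under LD; the arr3b call was lost without LD PFNA replicate 4 (limma adjusted p = 0.0504). The guanylate cyclase activator guca1e rose with PFNA under DD (1.85 ± 0.18) and fell with darkness in DMSO (-1.05 ± 0.18), and the kinase grk7b fell with darkness in DMSO (-0.62 ± 0.13). The gamma subunit gngt2a rose with darkness in PFNA (2.55 ± 0.61). The limma adjusted p of these was at most 0.0155 with all libraries in the fit. Of the same genes, gngt2a also rose with darkness in DMSO (2.43 ± 0.61, limma adjusted p = 0.0187), a call lost without LD DMSO replicate 2 or 3 or DD DMSO replicate 3 or 4 (up to 0.0628). The guca1e rise with PFNA under LD (0.67 ± 0.18, limma adjusted p = 0.0236) was lost without LD DMSO replicate 3 or 4 or LD PFNA replicate 2 or 3 (up to 0.0741). The related gene guca1d went the other way with PFNA under DD (-1.88 ± 0.27, limma adjusted p = 0.000288) and with darkness in DMSO (0.87 ± 0.27, limma adjusted p = 0.0442). It fell with darkness in PFNA (-0.99 ± 0.27, limma adjusted p = 0.0237) and differed by -0.01 ± 0.27 with PFNA under LD (limma adjusted p = 0.984). With PFNA under LD grk7b fell (-0.62 ± 0.13, limma adjusted p = 0.00607), and with darkness in PFNA slc24a2 fell (-0.67 ± 0.18, limma adjusted p = 0.0218), a call lost without LD PFNA replicate 2 or 4 (up to 0.0616). The kinase grk7a fell with PFNA under DD (-0.97 ± 0.14, limma adjusted p = 0.000311) and with darkness in PFNA (-0.91 ± 0.14, limma adjusted p = 0.00152). In those comparisons grk7b was not called, and where grk7b fell grk7a was not called.

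Among the genes known to bear on opsin choice, the thyroid hormone deiodinase genes dio2 and dio3b rose with PFNA under both light regimes. In the list of opsin regulators 8 of 37 tested genes rose and 3 fell with PFNA under LD, and 8 rose and 4 fell under DD, beside 7.05% and 3.7%, and 6.54% and 4.36%, of all genes; the list's median log2 changes were 0.06 and -0.02. The deiodinase dio2, which makes the active hormone, rose from 5.66 to 18.1 FPKM under LD (1.54 ± 0.22, limma adjusted p = 0.000353) and from 3.24 to 20.8 under DD (2.29 ± 0.22, limma adjusted p = 6.97e-06). The deiodinase dio3b, which inactivates the hormone, was at 10.6, 21.6, 28.4 and 68.1 FPKM in LD DMSO, LD PFNA, DD DMSO and DD PFNA and rose in all 4 comparisons (0.97 to 1.59, limma adjusted p at most 0.00241). The receptor thrb, needed for red cones in zebrafish, fell with PFNA under DD (-0.69 ± 0.11, limma adjusted p = 0.000624), where opn1lw2 fell too, and its difference under LD was -0.26 ± 0.11 (limma adjusted p = 0.141). With darkness in PFNA, where opn1lw2 also fell, thrb differed by -0.11 ± 0.11 (limma adjusted p = 0.523). Its difference with darkness in DMSO was 0.32 ± 0.11 (limma adjusted p = 0.0628). The related receptor thraa rose with darkness in DMSO (0.99 ± 0.14, limma adjusted p = 0.000553). The partner receptor rxrgb fell with PFNA under LD (-0.50 ± 0.14, limma adjusted p = 0.0363), a call lost without LD DMSO replicate 2, 3 or 4 or LD PFNA replicate 3 or 4 (up to 0.108).

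Some transcription factors are set beside an opsin they are known to act on. The gene six7, needed for green opsin expression in zebrafish, rose with PFNA under LD (1.18 ± 0.20, limma adjusted p = 0.00158) and DD (1.08 ± 0.20, limma adjusted p = 0.00282), in the comparisons where opn1mw1 fell. The gene foxq2, needed for blue opsin expression in zebrafish, was at 4.12 to 6.19 FPKM on group average, with a log2 difference of 0.06 ± 0.21 for PFNA under LD (limma adjusted p = 0.904), where opn1sw2 fell. The ultraviolet cone factor tbx2b was listed at 0 in every eye library and was not tested. The cause of this 0 was not tested either. The photoreceptor factor crx was at 219, 165, 170 and 135 FPKM on average in LD DMSO, LD PFNA, DD DMSO and DD PFNA, and its differences of -0.31 to -0.40 did not pass (limma adjusted p from 0.14 to 0.22). The rod factor nr2e3 did not pass either (-0.11 to 0.38). The nuclear receptor nr2f1b rose with PFNA under LD (0.82 ± 0.11, limma adjusted p = 0.000234) and DD (1.12 ± 0.11, limma adjusted p = 1.06e-05). The photoreceptor differentiation factor neurod1 fell with PFNA under DD (-0.88 ± 0.11, limma adjusted p = 5.76e-05) and with darkness in PFNA (-0.78 ± 0.11, limma adjusted p = 0.000691), as did the eye field factor rx2 (-0.96 ± 0.14 and -0.66 ± 0.14, limma adjusted p = 0.000262 and 0.00765). The related gene rx1 went the other way with PFNA, rising under LD (0.84 ± 0.16, limma adjusted p = 0.00313) and DD (0.94 ± 0.16, limma adjusted p = 0.00124).

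With darkness, 2 of the 37 regulators rose and 4 fell in DMSO, and 3 rose and 7 fell in PFNA, beside 6.22% and 6.34%, and 7.04% and 9.05%, of all genes. The counts that rose are near those shares, and the list medians were -0.05 and -0.18. In DMSO the falling genes with the smallest adjusted p were prdm1a (-0.68 ± 0.14), rorb (-0.51 ± 0.13) and samd11 (-0.45 ± 0.13), factors that act in photoreceptor development; the rorb call was lost without LD DMSO replicate 1 or 4 (limma adjusted p up to 0.0587), and that of samd11 without any 1 of LD DMSO or DD DMSO replicates 1 to 3 (up to 0.111). With PFNA under LD samd11 fell by more (-0.61 ± 0.13, limma adjusted p = 0.0066), while the related gene samd7 rose (0.97 ± 0.17, limma adjusted p = 0.00172). In PFNA eyes darkness went with higher cyp27c1 (1.11 ± 0.24, limma adjusted p = 0.00884), the enzyme that makes the red-shifted vitamin A2 chromophore, and lower cyp26a1 (-0.82 ± 0.19, limma adjusted p = 0.0135), which degrades retinoic acid. Both also changed with PFNA under DD, cyp27c1 by 0.999 ± 0.24 (limma adjusted p = 0.0128) and cyp26a1 by -1.21 ± 0.19 (limma adjusted p = 0.000705). The cyp26a1 fall with PFNA under LD (-0.65 ± 0.19, limma adjusted p = 0.0407) was lost without any 1 LD DMSO library, LD PFNA replicate 3 or 4, or DD DMSO replicate 2 (up to 0.118). The related gene cyp26c1 rose with PFNA under LD (0.63 ± 0.14, limma adjusted p = 0.00683) and differed by 0.10 ± 0.14 under DD (limma adjusted p = 0.718). With darkness in PFNA cyp26c1 fell (-0.46 ± 0.14, limma adjusted p = 0.0351). With darkness in PFNA prdm1a fell too (-0.56 ± 0.14, limma adjusted p = 0.0183), a call lost without LD PFNA replicate 1 (0.0508). The interneuron gene lhx1a rose there too (0.92 ± 0.23, limma adjusted p = 0.0169), a call lost without LD PFNA replicate 2 (0.0532).

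Lists of other cell types were read beside the opsins. The summed Müller glia list was 855 to 923 FPKM in LD DMSO, 1077 to 1240 in LD PFNA, 888 to 1165 in DD DMSO and 1313 to 1803 in DD PFNA. With PFNA 2 of 10 tested genes were higher and 0 lower under LD, and 1 higher and 1 lower under DD. The list's median log2 change with PFNA was 0.10 under LD and 0.15 under DD. A large part of the sum was glula, at 423 to 456 FPKM in LD DMSO and 663 to 782 in LD PFNA. In the same groups apoeb was at 62.0 to 83.9 and 74.3 to 117 FPKM, and rlbp1a at 51.1 to 59.5 and 43.5 to 58.0. The pigment epithelium list was 680 to 902 FPKM in LD DMSO and 1000.5 to 1242, 1061 to 1156 and 1059 to 1394 in the other groups, with 3 of 10 higher and 0 lower with PFNA under LD, 0 called under DD, 3 higher and 2 lower with darkness in DMSO and 2 higher and 5 lower with darkness in PFNA. In the bipolar, horizontal and amacrine, ganglion cell, brain and skeletal muscle lists 11 or 12 genes each were tested. At most 3 of a list were called in either direction in any of the 4 comparisons. With PFNA under LD 3 of 12 bipolar genes were higher and 1 lower, and 3 of 12 horizontal and amacrine genes were lower and 0 higher. Of all genes 7.05% rose and 3.7% fell with PFNA under LD, and 6.54% and 4.36% under DD. With darkness 6.22% rose and 6.34% fell in DMSO, and 7.04% and 9.05% in PFNA. In the lens list 0 of 13 genes were called with PFNA under either light regime or with darkness in DMSO, and its sum was 10434 to 24683 FPKM in DD PFNA. With darkness in DMSO 10 of 13 exocrine pancreas genes were higher (sums of 25.8 to 128 FPKM in LD DMSO and 84.7 to 409 in DD DMSO), and 4 of 10 Müller glia genes were higher and 1 lower. The part of these cells in the opsin values was not tested.

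Over the 16 eye libraries the opsins were compared for likeness, as a description of libraries that share group and depth. Pearson's r on log2(FPKM + 1) was 0.97 between opn1sw1 and opn1sw2, 0.95 between opn1sw2 and opn1mw1 and 0.91 between opn1sw1 and opn1mw1, and 0.73 to 0.85 between opn1lw2 and these. For opn1mw2 it was 0.36 to 0.43 with each of the others. On deviations from the group means, opn1mw2 had r = 0.54 with opn1sw1, 0.68 with opn1sw2 and 0.57 with opn1mw1, and opn1lw2 had 0.45, 0.60 and 0.34 with the same genes. The low pooled r of opn1mw2 with opn1sw1, opn1sw2 and opn1mw1 thus goes with its group means. With opn1lw2 its r was 0.42 pooled and 0.29 on deviations. Between opn1sw1, opn1sw2 and opn1mw1 the r on deviations was 0.88 to 0.93. The genes most like opn1mw1 were elovl4b (r = 0.98), gnat2 (0.96) and gnb3b (0.95). Those most like opn1sw1 were opn1sw2, opn1mw1 and hdac1 (0.90), and for opn1sw2 they were opn1sw1, opn1mw1 and elovl4b (0.92). The nearest genes were pick1 (0.90), fhl2b (0.89) and atat1 (0.87) for opn1mw2, and uggt1 (0.87), cpox (0.86) and dnaja1 (0.86) for opn1lw2.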

How the data were processed

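Eye and brain RNA was read as paired ends, per the labels' protocols, which describe both directional and non-directional preparation. HISAT2 2.0.5 and featureCounts 1.5.0-p3 stand, without roles, in the submitters' processing notes. No genome build is given in them. The authors deposited FPKM per gene for 32 libraries; their 2 pooled columns were not used. Multiplied by gene length, 100% of the FPKM values came out as whole fragments (tolerance 0.05).

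From log2(FPKM + 1), limma 3.58.1 (R 4.3.3; lmFit, eBayes with a trend, two-sided, Benjamini-Hochberg over all 18204 genes) fitted 1 mean per eye group, keeping genes with 1 FPKM or more in 4 or more of 16 libraries. Folds are on that scale and understate changes of low genes. Ratios were tested by exact permutation (SciPy 1.17.1). The fit was tested on simulated data. Alternatives were quantile normalization, median-ratio scaling, array weights, a replicate block, no filter, a pseudocount of 0.1, the compared groups alone, voom on recovered fragments and leaving out each library.

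Members and lists were chosen with earlier results of these data known. Named genes were the opsins, the called list genes with the 3 smallest adjusted p per direction and the 3 genes most like each opsin. A fixed set was also named (gnat2, dio2, thrb, tbx2b, foxq2, six7, nr2e3, crx and rho). Others named overlap an opsin gene (hcfc1a, CT573282.1) or are called list genes set beside a related gene (rx1, samd7, guca1d, cyp26c1 and grk7a). The alternatives were not read for rx1, samd7, guca1d, cyp26c1 and grk7a.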

Additional observations from a re-analysis of the deposited data

Results flagged for a closer look

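Among 84 groups of 4 libraries, 4 had 1 library far from the others by Dixon's criterion, which chance gives in about 1 in 20 groups. The blue opsin opn1sw2 was 104.3 FPKM in eye LD PFNA replicate 3 against 65.15 to 70.27 in the other 3 libraries. The green opsin opn1mw1 was 4448 FPKM in eye LD DMSO replicate 2 against 3289 to 3455 in the others. The 0.06279 FPKM of opn1mw3 in eye LD PFNA replicate 2 is 1 fragment, with the other 3 libraries at 0. The log2 ratio of opn1mw2 to opn1mw1 was -6.044 in eye DD PFNA replicate 1, below its group.

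The PFNA effect differed between DD and LD eyes in the limma test of the difference for 2 genes related to the opsins. The channel subunit cngb3.2 fell more under DD, by -0.805 (limma adjusted p = 0.0195), which did not pass without LD DMSO replicate 2 or 3 or LD PFNA replicate 2 (up to 0.068). For neurod1 the difference was -0.810 (limma adjusted p = 0.0467), which did not pass in 13 of the 16 refits that left out 1 library (up to 0.129), all but those without LD PFNA replicate 4, DD DMSO replicate 1 or DD PFNA replicate 4.

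Under the label brain DD PFNA replicate 3, a library held opn1sw1 at 2560, opn1mw1 at 1049, opn1lw2 at 424.7, opn1sw2 at 29.82 and opn1mw2 at 27.6 FPKM. The highest values of the other 15 brain libraries were 17.2, 7.26, 1.92, 0.430 and 0.134 FPKM. It entered no comparison.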

How the results depend on the processing

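No result changed sign past the threshold under any alternative that was run. Over 595 refits of a cone opsin value, 550 kept their side of the threshold, 37 lost a call and 8 gained one. Over 4522 refits of other named genes, 4315 kept their side, 109 lost a call and 98 gained one. The opn1mw1 and opn1sw2 falls from LD DMSO eyes and the opn1mw2 fall with PFNA under DD passed in 24 of 24 alternatives. The opn1sw1 fall passed in 17 of 24 with PFNA under LD and in 9 of 24 with darkness in DMSO (limma adjusted p up to 0.347, with no filter), and the opn1lw2 fall in 16 of 24 with PFNA under DD and in 21 of 24 with darkness in PFNA. The uncalled opn1sw1 and opn1mw2 differences between DD and LD in PFNA eyes changed sign in 1 and 2 of 24.

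With array weights 3794 genes were called for PFNA under LD (1956 in the fit reported), 4598 for darkness in DMSO (2288) and 90 for the difference of the PFNA effect (25), and 5 cone opsins were called for darkness in DMSO, opn1mw2 among them as higher. With only the 2 groups compared the counts were 3108 for PFNA under LD, 734 for PFNA under DD (1983), 3546 for darkness in DMSO and 348 for darkness in PFNA (2928), with 1 cone opsin called for PFNA under DD and 0 for darkness in PFNA. With no filter on low values 1 cone opsin was called for PFNA under DD and 1 for darkness in PFNA. The cause of these shifts was not tested.

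Leaving out 1 library gave 1307 to 3198 genes for PFNA under LD, 1329 to 2541 for PFNA under DD, 1253 to 3993 for darkness in DMSO, 1467 to 3565 for darkness in PFNA and 6 to 57 for the difference of the PFNA effect. The counts of 3198, 3993 and 57 came without eye DD PFNA replicate 4. Cone opsins called ran from 2 to 3, 2 to 4, 2 to 4, 1 to 2 and 0 to 0. The opn1mw2 to opn1mw1 log2 ratio ran from 0.105 to 0.418, -0.725 to -0.38, 1.365 to 1.677 and 0.535 to 0.879.

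Replicate numbers gave at most weak signs of pairing. A correlation of deviations over 0.1 was found in 2 of 24 same-numbered pairs (median 0.0205, highest 0.215). The same was found in 1 of 72 different-numbered pairs (median -0.00324, highest 0.103), and 7 of 16 libraries correlated best with their own number. With the replicate block 1841, 1925, 2243, 2920 and 24 genes were called, and among the cone opsins only the opn1sw1 call for darkness in DMSO was lost (limma adjusted p = 0.0627). For the opn1mw2 to opn1mw1 ratio the block of 4 pairs cannot go below an exact permutation p of 0.125, which 3 of the 4 comparisons reached. The ratios opn1lw1 to opn1lw2 and opn1mw4 to opn1mw3 were not run, since libraries were at 0. Depth limits opn1lw1, opn1mw3 and opn1mw4, which rest on 72, 47 and 0 fragments in 16 eye libraries.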
